A study of Rattus norvegicus with 12 samples.

Results

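Txnip, 4 other genes with an arrestin fold (Arrdc1, Arrdc2, Arrdc3 and Arrdc4), both thioredoxins (Txn1 and Txn2) and Mlxip were examined in the left ventricle of rats with and without heart failure. The genes were found by their symbols in the deposited gene table, and all 8 were present among 34700 genes. The set was chosen by the levels and fold changes of an earlier look at these same rats, so every comparison between groups counts as used and is given as a description. RNA was sequenced from the anterior wall of the left ventricle of 12 male Sprague-Dawley rats, 3 in each of 4 groups. Rats of the HF group had the left anterior descending coronary artery tied at 8 weeks of age and stayed sedentary. Sham rats underwent the same operation with the thread passed but not tied. HFE rats had the ligation and then 8 weeks of exercise training, for 60 min a day on 5 days a week. BAIBA rats had the ligation and then 8 weeks of β-aminoisobutyric acid, a metabolite that contracting muscle releases, at 75 mg/kg a day by gavage. By the methods, Sham and HF rats received 1 ml of water by gavage. A supplementary text of the study describes BAIBA for the Sham and HF groups instead, and the labels and methods were followed here. The methods state this gavage for the BAIBA study and none for HFE rats. Sham and HF groups are listed for both the exercise and the BAIBA study, and which of them were sequenced is not stated. Groups compared here may therefore also differ in gavage or study. Treatment began 4 weeks and the hearts were collected 12 weeks after the operation. All rats were of this 1 strain. The methods name tissue next to the infarct for BAIBA rats, and the study's account of its results names it for HF rats as well, so whether HF and BAIBA differ in the tissue taken is unclear. Against Sham and HFE, the treatment and the tissue taken cannot be told apart. The labels call the groups Sham, HF+Sed, HF+Exe and HF+Med. Each sample was 1 rat, and the ligated rats had been divided by ejection fraction before treatment.

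Txnip binds thioredoxin through its redox-active cysteines and holds back its reducing activity, and it also drives glucose transporters into endosomes. Its relatives Arrdc1 to Arrdc4 share the arrestin fold, and carry PY motifs through which they recruit Nedd4-family ubiquitin ligases to membrane proteins such as the β2-adrenergic receptor. Txn1 is the cytosolic thioredoxin and Txn2 the mitochondrial one, and both pass electrons from thioredoxin reductase to peroxiredoxins and other targets. Mlxip encodes MondoA, a transcription factor that responds to glucose 6-phosphate, pairs with Mlx on E-box DNA and is best known for switching on Txnip and Arrdc4. In the heart Txnip is abundant and is known for its response to glucose, glucocorticoids and stretch.

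Promoter windows of 250 bases before to 50 bases after the annotated start were matched by symbol in RefSeq (GRCr8) for 7 of the 8 genes, and Txnip had no entry. The windows of the 3 relatives whose levels moved most between groups are shown, with E-boxes (CACGTG) and CCAAT boxes in capitals on either strand, so that ATTGG is a CCAAT box on the other strand. The windows are chr1:131793376-131793675 on the minus strand for Arrdc4, chr2:12872952-12873251 on the plus strand for Arrdc3 and chr16:18635633-18635932 on the plus strand for Arrdc2.
Arrdc4: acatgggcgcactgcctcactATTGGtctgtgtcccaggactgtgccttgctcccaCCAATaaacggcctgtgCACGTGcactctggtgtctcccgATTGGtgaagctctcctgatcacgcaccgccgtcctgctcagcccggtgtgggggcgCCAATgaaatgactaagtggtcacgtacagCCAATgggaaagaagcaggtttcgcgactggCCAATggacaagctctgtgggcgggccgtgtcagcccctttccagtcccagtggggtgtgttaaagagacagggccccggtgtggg
Arrdc3: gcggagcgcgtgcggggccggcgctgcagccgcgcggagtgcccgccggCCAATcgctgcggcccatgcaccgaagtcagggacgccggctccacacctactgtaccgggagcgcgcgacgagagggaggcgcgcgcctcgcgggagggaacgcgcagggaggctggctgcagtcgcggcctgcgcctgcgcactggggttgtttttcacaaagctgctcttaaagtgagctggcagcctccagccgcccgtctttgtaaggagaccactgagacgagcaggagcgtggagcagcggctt
Arrdc2: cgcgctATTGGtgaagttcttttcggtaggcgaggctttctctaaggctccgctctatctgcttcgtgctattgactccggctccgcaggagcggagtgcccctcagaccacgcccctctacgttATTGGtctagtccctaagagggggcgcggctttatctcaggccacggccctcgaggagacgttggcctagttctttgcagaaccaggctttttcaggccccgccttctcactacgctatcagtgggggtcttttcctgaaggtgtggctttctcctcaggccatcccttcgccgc
The E-box, the DNA that Mondo proteins and Mlx recognise, was found in the window of 1 of the 7 genes, that of Arrdc4, with its first base at -177 from the start. It was present in 6.42% of 33469 rat promoter windows of this length. The Arrdc4 window also held 6 CCAAT boxes, the letters that the factor NF-Y binds, while Arrdc2 held 2, Arrdc3, Txn2 and Mlxip 1 each, and Arrdc1 and Txn1 none. At least 1 CCAAT box was found in 37.5% of all windows, and at least 6 in 14 windows (0.0418%). The carbohydrate response element, searched as CACGNG followed after 5 bases by CNCGNG, was in 0.332% of windows and in none of these 7. The letters ACANNNTGT, a loose form of the glucocorticoid receptor site, were in 6.86% of windows, and the FoxO site GTAAACA was in 3.78%, with no match in these 7 genes. The antioxidant response core TGACNNNGC was in 12.1% of windows, and Arrdc4 had 1 match. Both strands were searched for every motif, and motifs could overlap. The matches describe letters in these windows and not sites that were shown to be bound.

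The 8 genes differed widely in abundance per length. Txnip had the highest level, with a mean of 189 FPKM (fragments per length of gene and per sequenced fragment) over the 12 rats and a range of 105 to 387 FPKM. Txn1 followed with 127 FPKM and Txn2 with 83.7 FPKM. Arrdc3 had a mean of 8.80 FPKM, Arrdc4 of 6.77 FPKM, Arrdc1 of 6.24 FPKM, Mlxip of 4.56 FPKM and Arrdc2 of 3.59 FPKM. The ranges over rats of Txnip (105 to 387 FPKM), Txn1 (68.8 to 182 FPKM) and Txn2 (52.2 to 115 FPKM) overlapped each other, as did those of Arrdc3 (5.83 to 12.7 FPKM), Arrdc4 (4.20 to 11.98 FPKM) and Arrdc1 (4.51 to 8.60 FPKM). The lowest rat for Txn2 was above the highest rat for every Arrdc gene and Mlxip. The Txn1 gene model had a counted length of 315 nt, which is a coding length without untranslated parts, while the other counted lengths were between 1128 and 4520 nt, so the FPKM of Txn1 rests on the shortest model. Raw counts ranged from 73 for Arrdc2 to 21059 for Txnip, at 14812541 to 19732588 counts per rat. For comparisons of 1 gene between rats, CPM (counts scaled by the library total and a trimmed-mean, or TMM, factor) were used.

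**Figure D1:**
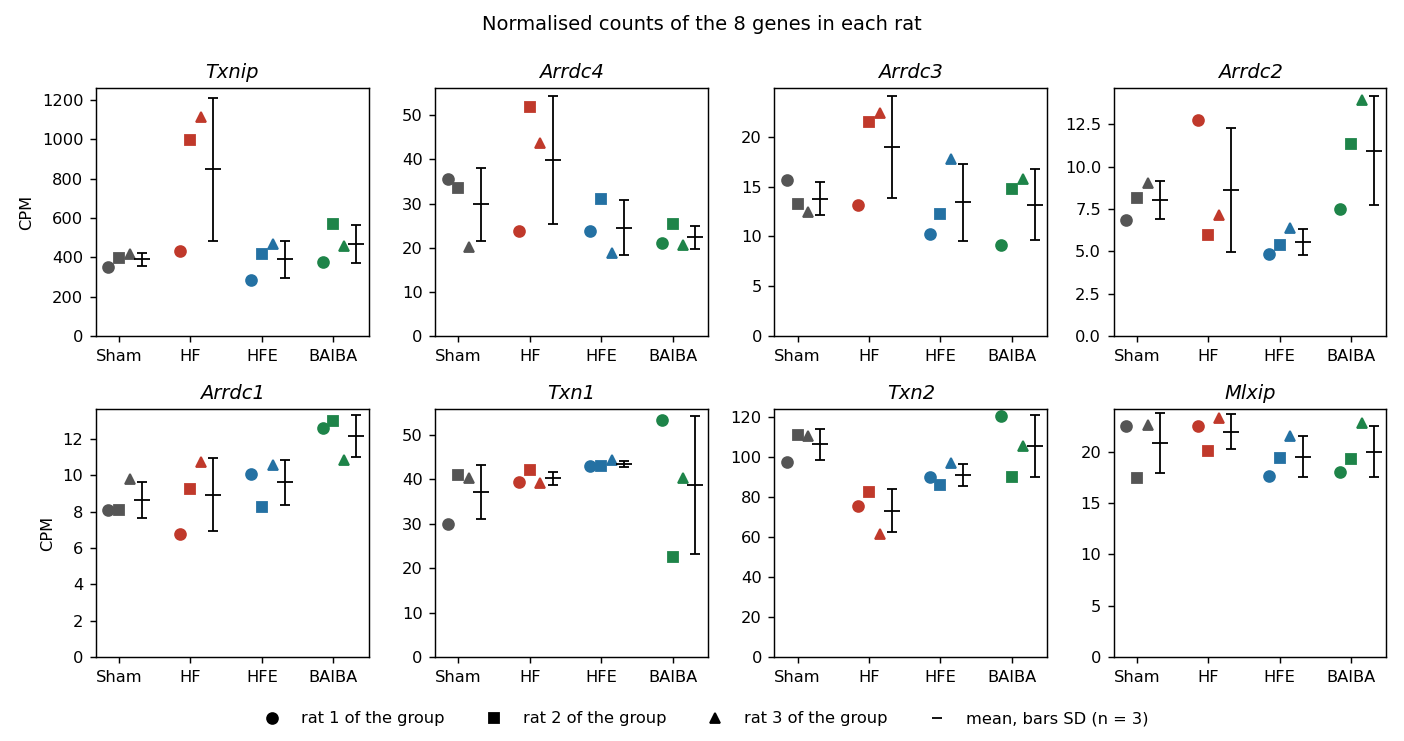
Level of each gene (CPM, linear axis from 0) in each of the 3 rats of the 4 groups, with the mean and SD beside them. Txnip stood at 994 and 1115 CPM in HF rats 2 and 3 and between 286 and 568 CPM in the other rats.

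Txnip was highest in the HF group. Its level was 351, 398 and 417 CPM in Sham rats 1 to 3 and 432, 994 and 1115 CPM in HF rats 1 to 3. It was 286, 416 and 468 CPM in HFE rats and 377, 568 and 458 CPM in BAIBA rats. HF rat 1 stood just above the Sham range and inside the HFE and BAIBA ranges, while HF rats 2 and 3 were above every rat of the other groups. The group means were 389 ± 34.2 CPM in Sham, 390 ± 93.6 CPM in HFE, 468 ± 96.2 CPM in BAIBA and 847 ± 364 CPM in HF (SD, n = 3). In that order each neighbouring pair of groups overlapped. The coefficient of variation was 8.80% in Sham and 43.0% in HF. The log2 fold change was 1.12 (SE 0.34) for HF against Sham, -1.12 (SE 0.38) for HFE against HF and -0.86 (SE 0.35) for BAIBA against HF, and it was 0.01 (SE 0.18) for HFE against Sham, 0.26 (SE 0.21) for BAIBA against HFE and 0.27 (SE 0.15) for BAIBA against Sham. The first 3 comparisons share the HF rats, so 1 high HF group enters all of them. In whole-tissue RNA, fewer cells of a type and less RNA per cell cannot be told apart.

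HF rat 1 also differed from the other rats in the leukocyte markers Ptprc and Cd3e. The summed level of 4 leukocyte markers (Ptprc, Cd68, C1qa and Cd3e, all in the table and none at 0) was 164 CPM in HF rat 1, and the sums ranged from 51.3 to 61.1 CPM in Sham, 38.6 to 164 CPM in HF, 39.9 to 63.4 CPM in HFE and 52.2 to 115 CPM in BAIBA. Cd3e, a subunit of the T cell receptor complex, was 35.9 CPM in HF rat 1 and at most 3.46 CPM in the other rats. Ptprc was 104 CPM in HF rat 1 and at most 46.3 CPM in the other rats. Cd68 (4.93 CPM) and C1qa (19.4 CPM) in HF rat 1 lay inside the range of the other rats, so the sum does not describe all of these markers. The atrial marker sum (Myl7, Myl4, Sln and Nppa) was 69.8 CPM in HF rat 1, 457 CPM in HF rat 2 and 538 CPM in HF rat 3, with 30.5 to 441 CPM in Sham, 28.6 to 195 CPM in HFE and 12.3 to 215 CPM in BAIBA. Of these 4 markers, Sln was at 0 in at least 1 rat, and Nppa, which failing ventricles also make, carried most of the sum in these HF rats, at 454 and 509 CPM in HF rats 2 and 3. The erythroid sum (Hbb, Hba-a1, Hba-a2 and Alas2, none at 0) was 499, 960 and 1115 CPM in HF rats 1 to 3, with 534 to 776 CPM in Sham, 698 to 823 CPM in HFE and 901 to 1298 CPM in BAIBA. The fibroblast and scar sum (Col1a1, Col3a1, Postn, Dcn and Pdgfra, none at 0) was 995, 1275 and 1460 CPM in HF rats 1 to 3, with 1313 to 1404 CPM in Sham, 970 to 1318 CPM in HFE and 1251 to 1788 CPM in BAIBA. Of its genes, Dcn was 466, 671 and 754 CPM in HF rats 1 to 3, while Col1a1 was 104, 115 and 108 CPM. Col1a1 and Col3a1 (380, 424 and 508 CPM) were below every Sham rat in all HF rats. The part of these 4 marker lists in the Txnip levels was not tested. Without HF rat 1, the Txnip log2 fold change was 1.44 for HF against Sham, -1.43 for HFE against HF and -1.17 for BAIBA against HF. Without HF rat 2 these were 0.99, -0.99 and -0.73, and without HF rat 3 they were 0.88, -0.87 and -0.61.

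Arrdc4, the relative of Txnip that also restrains glucose uptake, had its highest 2 values in the same HF rats. It was 35.6, 33.5 and 20.2 CPM in Sham rats 1 to 3, 23.9, 51.9 and 43.8 CPM in HF rats, 23.8, 31.0 and 18.8 CPM in HFE rats, and 21.0, 25.4 and 20.5 CPM in BAIBA rats. HF rat 1 lay inside the ranges of the other 3 groups. The means were 22.3 ± 2.69 CPM in BAIBA, 24.6 ± 6.13 CPM in HFE, 29.8 ± 8.34 CPM in Sham and 39.8 ± 14.4 CPM in HF (SD, n = 3), and neighbours in this order overlapped. The log2 fold change was 0.42 (SE 0.34) for HF against Sham, -0.70 (SE 0.32) for HFE against HF and -0.84 (SE 0.27) for BAIBA against HF. Without HF rat 1 these values were 0.68, -0.96 and -1.10, and without HF rat 2 they were 0.17, -0.46 and -0.60. BAIBA was lower than Sham by a log2 fold change of -0.41 (SE 0.21), with overlapping rats.

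Arrdc3, which carries ligases to the β2-adrenergic receptor, showed a smaller difference of the same direction in HF. Its level was 15.6, 13.2 and 12.5 CPM in Sham, 13.1, 21.5 and 22.3 CPM in HF, 10.3, 12.3 and 17.7 CPM in HFE, and 9.09, 14.8 and 15.7 CPM in BAIBA, for rats 1 to 3 of each group. HF rats 2 and 3 were again above all others, and HF rat 1 was within the Sham range. The log2 fold change was 0.46 (SE 0.22) for HF against Sham, -0.50 (SE 0.27) for HFE against HF and -0.53 (SE 0.27) for BAIBA against HF. Leaving out 1 rat gave 0.33 (without HF rat 3) to 0.67 (without HF rat 1) for the first, -0.75 (without HFE rat 3) to -0.34 (without HFE rat 1) for the second and -0.73 (without HF rat 1) to -0.31 (without BAIBA rat 1) for the third. The means of BAIBA, HFE and Sham were 13.2, 13.4 and 13.8 CPM, closer than the spread within any of these groups, and that of HF was 19.0 ± 5.10 CPM (SD, n = 3).

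Arrdc2 followed another order. It was 6.87, 8.17 and 9.06 CPM in Sham rats, 12.8, 5.95 and 7.15 CPM in HF rats, 4.86, 5.40 and 6.39 CPM in HFE rats, and 7.53, 11.4 and 13.9 CPM in BAIBA rats. HF rat 1, low for Txnip, Arrdc3 and Arrdc4 within its group, was the highest HF rat for Arrdc2. All HFE rats were below all Sham and all BAIBA rats. The log2 fold change was 0.98 (SE 0.24) for BAIBA against HFE and -0.53 (SE 0.18) for HFE against Sham. It was -0.64 (SE 0.30) for HFE against HF and -0.24 without HF rat 1. HF against Sham gave 0.10 (SE 0.29), which became -0.29 without HF rat 1. BAIBA against HF gave 0.34 (SE 0.34), which was 0.74 without HF rat 1 and 0.13 without HF rat 2.

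Arrdc1, known for budding of vesicles at the plasma membrane, was highest in the BAIBA group. Its level was 12.6, 13.0 and 10.9 CPM in BAIBA rats, against 8.08, 8.10 and 9.78 CPM in Sham, 6.77, 9.26 and 10.8 CPM in HF, and 10.1, 8.24 and 10.6 CPM in HFE. All BAIBA rats were above all rats of the other 3 groups, though the lowest BAIBA rat (10.9 CPM) and the highest HF rat (10.8 CPM) were close. The log2 fold change for BAIBA was 0.50 (SE 0.15) against Sham, 0.44 (SE 0.20) against HF and 0.34 (SE 0.16) against HFE. The means of Sham, HF and HFE were 8.66, 8.93 and 9.62 CPM with overlapping rats. An annotated gene overlaps Arrdc1 in GRCr8 (LOC134486057), and since use of strand in the counting is not given in the sources used here, reads of the 2 cannot be told apart.

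**Figure D2:**
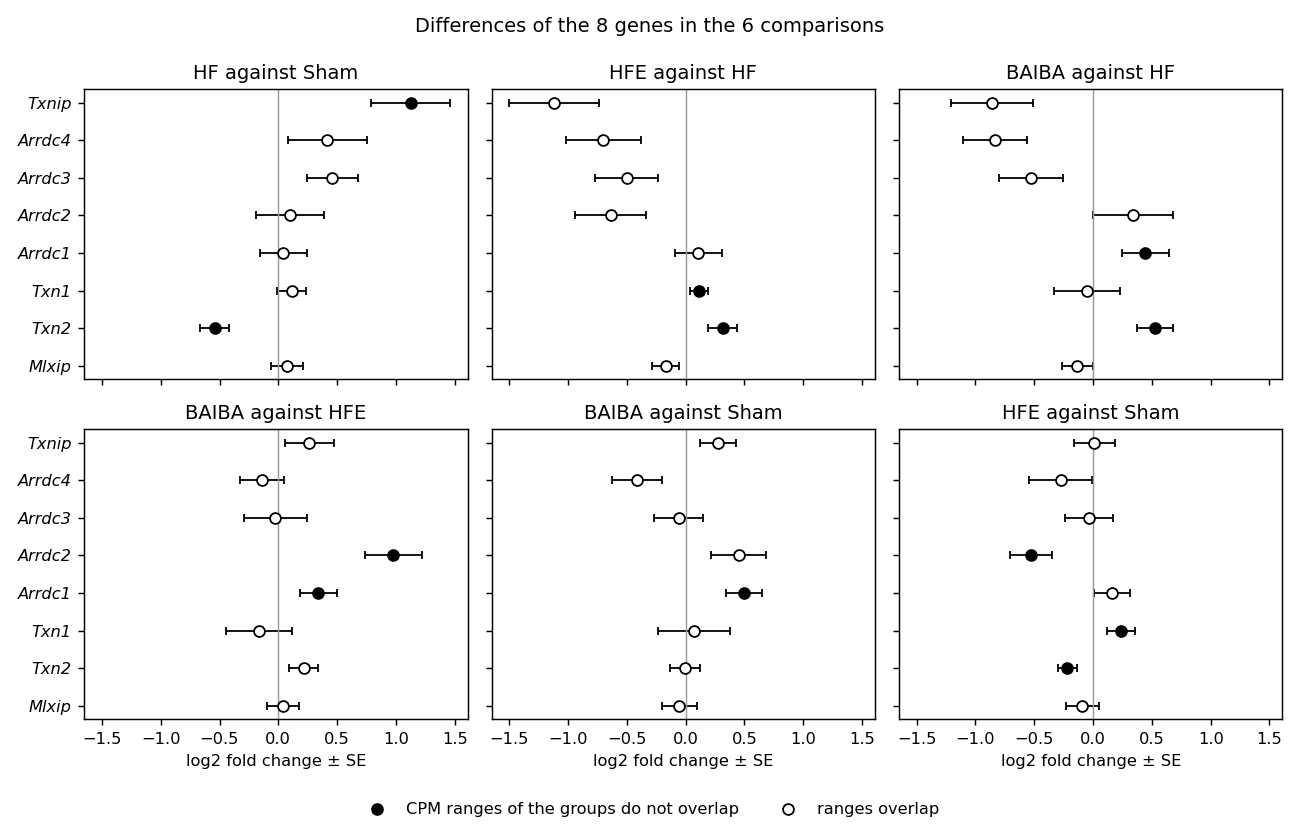
Log2 fold change with SE (horizontal bars) of the 8 genes in each of the 6 comparisons of 3 against 3 rats, with filled points where the CPM ranges of the groups did not overlap. The largest values were those of Txnip, 1.12 for HF against Sham and -1.12 for HFE against HF, and Txn2 had the opposite sign to Txnip in both.

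Txn2, the mitochondrial thioredoxin, was lowest in the HF group. It was 97.4, 111 and 111 CPM in Sham rats, 75.3, 82.6 and 61.5 CPM in HF rats, 89.9, 86.2 and 97.1 CPM in HFE rats, and 121, 90.1 and 106 CPM in BAIBA rats. All 3 HF rats were below every rat of the other groups, including HF rat 1. The means were 73.1 ± 10.7 CPM in HF, 91.1 ± 5.56 CPM in HFE, 106 ± 15.4 CPM in BAIBA and 106 ± 7.78 CPM in Sham (SD, n = 3), of which HF and HFE did not overlap and the later neighbours did. The log2 fold change was -0.54 (SE 0.12) for HF against Sham, 0.31 (SE 0.12) for HFE against HF and 0.53 (SE 0.15) for BAIBA against HF. HFE against Sham gave -0.22 (SE 0.08), with every HFE rat under every Sham rat, and BAIBA against Sham was -0.0046 (SE 0.13). Leaving out any 1 rat kept HF against Sham between -0.64 and -0.43. HFE against HF was 0.20 without HF rat 3 and 0.41 without HF rat 2, and BAIBA against HF stayed between 0.42 and 0.63. The cardiomyocyte marker sum (Myh6, Tnnt2, Actn2, Ryr2 and Tnni3, none at 0) also differed, with 29817 to 32434 CPM in Sham, 23504 to 25912 CPM in HF, 22309 to 27032 CPM in HFE and 23712 to 32278 CPM in BAIBA. Myh6, a myosin heavy chain, carried most of this difference, with 17422 to 19603 CPM in Sham and 11252 to 13878 CPM in HF. For HF against Sham the log2 fold change was -0.62 for Myh6, -0.01 for Tnnt2, -0.01 for Actn2, -0.05 for Tnni3 and -0.24 for Ryr2. The part of these markers in the Txn2 levels was not tested. LOC102553868 overlaps Txn2 in GRCr8.

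Txn1, the cytosolic thioredoxin, varied mainly within the BAIBA group. It was 30.1, 41.0 and 40.4 CPM in Sham rats, 39.3, 42.0 and 39.3 CPM in HF rats, 43.1, 43.1 and 44.3 CPM in HFE rats, and 53.3, 22.5 and 40.3 CPM in BAIBA rats. The highest and the lowest of the 12 rats were both treated with BAIBA, with a coefficient of variation of 40.0% in that group and 1.63% in HFE. All HFE rats were above all Sham and HF rats, by log2 fold changes of 0.23 (SE 0.12) and 0.11 (SE 0.08). HF against Sham gave 0.11 (SE 0.13). BAIBA against HF gave -0.05 (SE 0.28), which was 0.22 without BAIBA rat 2 and -0.35 without BAIBA rat 1. BAIBA rat 1, the highest rat for Txn1, had the highest mesothelial marker sum (Upk3b, Msln and Wt1, of which Upk3b and Msln were at 0 in at least 1 rat), with 64.4 CPM. The sums ranged from 23.9 to 64.4 CPM in BAIBA, 17.9 to 21.7 CPM in Sham, 21.6 to 23.7 CPM in HF and 19.0 to 23.5 CPM in HFE. Msln (36.1 CPM) and Upk3b (10.5 CPM) carried most of the sum in BAIBA rat 1, while Wt1 (17.8 CPM) was the lowest of the BAIBA rats. BAIBA rat 1 also had the highest fibroblast and scar sum (1788 CPM), a leukocyte sum of 115 CPM and the lowest endothelial sum (Cdh5, Kdr and Tie1, 315 CPM). BAIBA rat 2, the lowest rat for Txn1, had 37.6% of its counts in the 10 most counted genes, the highest share, with 31.8% to 34.9% in the other rats. The part of these marker lists and of this share in the Txn1 levels was not tested.

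Mlxip, the gene of MondoA, differed little. Its 12 values lay between 17.4 and 23.4 CPM, and the group means were 19.5 in HFE, 20.04 in BAIBA, 20.9 in Sham and 22.0 CPM in HF, all with overlapping rats. Its log2 fold changes ranged from -0.17 (SE 0.12) for HFE against HF to 0.07 (SE 0.13) for HF against Sham. LOC120096088 overlaps Mlxip in GRCr8, as LOC120100652 does Arrdc3.

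A gene was called by the thresholds of the study, with a log2 fold change over 1 in size and an adjusted p under 0.05 by edgeR's quasi-likelihood test (Benjamini-Hochberg, over every gene tested). All 8 genes passed the filter on low counts in every comparison, in which 14804 to 15039 genes were tested. For HF against Sham, edgeR called 0 of 8, beside 0% of all genes, and 2 (Txnip and Txn2) had an unadjusted p under 0.05, beside 6% of all genes. DESeq2 called 1 of 8, Txnip, beside 0.102% of its genes. With no fold limit, 2 of 8 (Txnip and Txn2) had a DESeq2 adjusted p under 0.05, beside 0.222%. Without HF rat 1, edgeR also called Txnip, beside 0.0263% of all genes. For HFE against HF, edgeR called 0 of 8 (0% of all genes) and DESeq2 0 of 8 (0.0813%), with Txnip and Txn2 under 0.05 unadjusted (7.62%). For BAIBA against HF, edgeR called 0 of 8 (0%) and DESeq2 0 of 8 (0.122%), with Txnip, Arrdc4 and Txn2 under 0.05 unadjusted (5.55%). For BAIBA against HFE, edgeR called 0 of 8 (0.0808%) and DESeq2 0 of 8 (0.728%), with Arrdc2 under 0.05 unadjusted (9.57%). Arrdc2 also had a DESeq2 adjusted p under 0.05 there (1.4% of its genes), with a log2 fold change under the limit of 1. For BAIBA against Sham, edgeR called 0 of 8 (0.0402%) and DESeq2 0 of 8 (0.333%), with Arrdc1 under 0.05 unadjusted (7.41%). For HFE against Sham, edgeR called 0 of 8 (0%) and DESeq2 0 of 8 (0.313%), with Arrdc2 and Txn2 under 0.05 unadjusted (11.2%). Since these contrasts were known when the genes were put together, nothing is read from these counts.

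Over all 4 groups in 1 edgeR fit, 0 of 8 genes had an adjusted p under 0.05 (0% of 15617 genes). Txnip, Txn2 and Arrdc2 had an unadjusted p under 0.05 (9.71% of genes), and DESeq2's likelihood ratio test gave 2, Txnip and Txn2 (1.34% of its genes). All HF rats were above all Sham rats for Txnip (5.25% of all genes) and below them for Txn2 (6.55%). HFE rats were all above HF rats for Txn1 and Txn2 (8.26%) and below for none of the 8 (6.16%). BAIBA rats were all above HF rats for Txn2 and Arrdc1 (6.01%) and below for none (5.37%). BAIBA rats were all above HFE rats for Arrdc2 and Arrdc1 (7.13%) and below for none (8.37%). BAIBA rats were all above Sham rats for Arrdc1 (6.52%) and below for none (6.17%). HFE rats were all above Sham rats for Txn1 (9.5%) and below for Arrdc2 and Txn2 (8.24%). The median log2 fold change of the 8 genes was 0.11 for HF against Sham, -0.34 for HFE against HF and -0.09 for BAIBA against HF, while that of all tested genes was 0.01, -0.01 and -0.01. The labels do not say that rats of a group came from separate litters or batches. The p-values set each group difference against the spread between these rats, which the fits estimate partly across genes.

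The levels of Txnip and of the other 7 genes were then compared within the groups, a measure that does not use the group means. Deviations of each rat from its group mean in log2(CPM + 0.1) were correlated over 12 rats, with an exact two-sided permutation test over the 1296 arrangements of rats within groups and Benjamini-Hochberg adjustment over 7 genes. Arrdc3 had the highest Pearson r with Txnip, 0.79 (exact permutation p = 0.0201, adjusted 0.140), with a Spearman rho of 0.69 (exact permutation p = 0.0718, adjusted 0.302). Without the 2 rats farthest from the median of the Txnip deviations, HF rat 1 and HFE rat 1, r was 0.64. In every value without these 2 rats, deviations were still taken from group means that included them. Arrdc1 had an r of 0.67 (exact permutation p = 0.152, adjusted 0.532), a rho of 0.64 (exact permutation p = 0.0864, adjusted 0.302) and an r of 0.56 without these rats. For Arrdc4, r was 0.52 (exact permutation p = 0.290, adjusted 0.640) and rho 0.43 (exact permutation p = 0.308, adjusted 0.718), and without the 2 rats r was 0.16, so the value rests on them. For Arrdc2, r was -0.32 (exact permutation p = 0.625, adjusted 0.640) and rho -0.15 (exact permutation p = 0.757, adjusted 0.757), and r turned to 0.13 without them. For Txn2, r was -0.30 (exact permutation p = 0.583, adjusted 0.640) and rho -0.19 (exact permutation p = 0.677, adjusted 0.757), with r at -0.39 without these rats. For Txn1, r was -0.22 (exact permutation p = 0.416, adjusted 0.640) and rho -0.22 (exact permutation p = 0.499, adjusted 0.757), with r at -0.43 without them. For Mlxip, r was 0.14 (exact permutation p = 0.640, adjusted 0.640) and rho 0.15 (exact permutation p = 0.630, adjusted 0.757), with r again 0.14 without them. Leaving out 1 rat, with group means taken anew, turned the sign for 5 genes. Without HF rat 1, r became -0.13 for Arrdc4 and 0.69 for Arrdc2. It became 0.0873 for Txn1 without BAIBA rat 2, 0.016 for Txn2 without HF rat 3 and -0.0083 for Mlxip without HFE rat 1. Arrdc1 kept its sign but fell to 0.17 without HF rat 1, while Arrdc3 was 0.69 there. No gene passed the adjusted threshold.

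**Figure D3:**
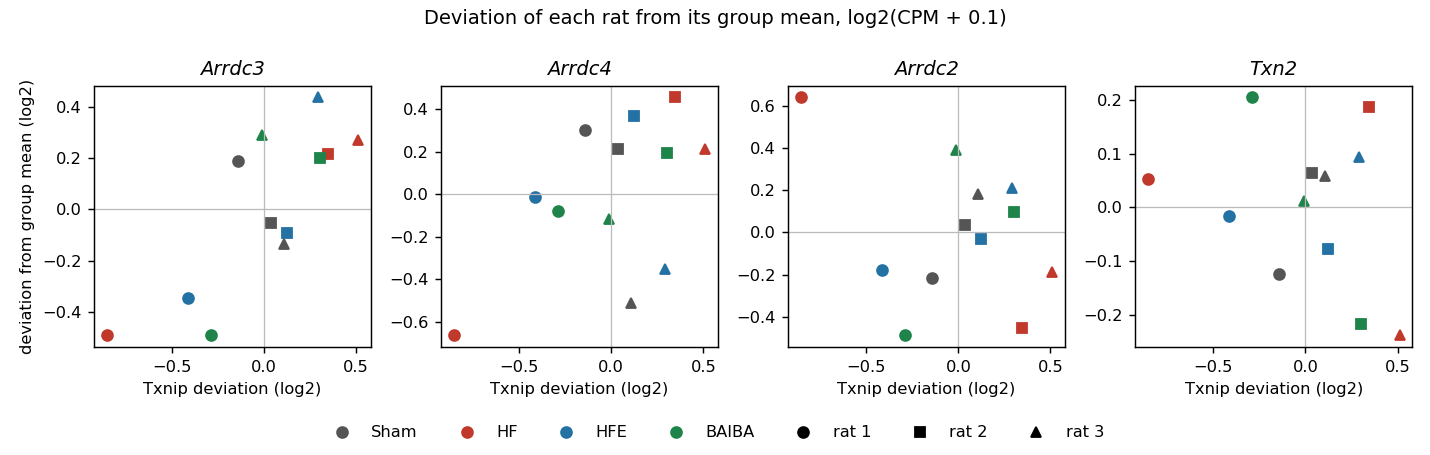
Deviation of each rat from its group mean in log2(CPM + 0.1), for Txnip on the horizontal axis and Arrdc3, Arrdc4, Arrdc2 or Txn2 on the vertical axis, with colours for groups and shapes for rat numbers. HF rat 1 is the leftmost point in each panel, and Arrdc3 has the highest correlation with Txnip of the 4 (r = 0.79).

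Over the 12 rats with group differences kept in, the genes most like Txnip were listed as a description, by Pearson r of log2(CPM + 0.1) among 14213 genes with a symbol. The rats share groups, and HF rats 2 and 3 weigh heavily in each r. The 5 highest were Sh3d19 (r = 0.92, rho 0.74), Cysltr1, a leukotriene receptor (r = 0.92, rho 0.78), Slc6a6, the taurine transporter (r = 0.92, rho 0.40), Klf10, a transcription factor of the Krüppel-like family (r = 0.90, rho 0.64), and Gnaq, the Gq alpha subunit (r = 0.90, rho 0.90). Slc6a6 was 77.2 and 77.1 CPM in HF rats 2 and 3, with a lowest level of 16.0 CPM among all rats. The 5 lowest were Kcnj11, the pore subunit of the cardiac ATP-sensitive potassium channel (r = -0.93, rho -0.86), Timm9, an import chaperone of mitochondria (r = -0.91, rho -0.66), Zfp629 (r = -0.89, rho -0.64), Hba-a3, a haemoglobin alpha chain (r = -0.88, rho -0.42), and Sapcd2 (r = -0.87, rho -0.71). Hba-a3 was at 0 in both HF rats 2 and 3 and reached at most 8.26 CPM, so reads could be shared with the other alpha chains. Among the 8 genes, r with Txnip was 0.83 for Arrdc3, 0.64 for Arrdc4 (rho 0.19) and -0.64 for Txn2 (rho -0.50).

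The genes most like Arrdc4 were Cd47 (r = 0.87, rho 0.86), the clathrin adaptor Dab2 (r = 0.87, rho 0.72) and Tmem140 (r = 0.85, rho 0.81). Those most like Arrdc2 were Tut1 (r = 0.91, rho 0.96), Agap2 (r = 0.89, rho 0.84) and Smarcd2 (r = 0.88, rho 0.92). Those most like Txn1 were all annotated as ribosomal proteins, the L9-like LOC100360449 (r = 0.97, rho 0.85), Rps20 (r = 0.97, rho 0.92) and the S14-like LOC100911847 (r = 0.95, rho 0.85). Of these, LOC100360449 and LOC100911847 carry the names of copies of ribosomal protein genes, among which reads may be split.

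The other genes of the pathways were taken from 4 lists written from textbook roles, with earlier results of these data known. The counts and medians of these lists are therefore given as a description. Many of those named below were picked for large differences from HF or Sham without overlap of the groups. Their lack of overlap is therefore no result, and for HF against Sham 5.25% of all genes were higher and 6.55% lower without overlap. Over the 4 lists together, edgeR called 0 of 63 tested genes for HF against Sham, 0 of 64 for HFE against HF and 0 of 64 for BAIBA against HF. At an unadjusted p under 0.05 the counts were 8, 10 and 5, beside 6%, 7.62% and 5.55% of all genes. DESeq2 called 0, 1 (Angptl4) and 0, beside 0.102%, 0.0813% and 0.122% of its genes. Of 22 genes of the thioredoxin system, edgeR called 0 in each of these 3 comparisons, and their median log2 fold changes were -0.06, -0.0032 and 0.07. For HF against Sham 1 of them was higher and 2 were lower at an unadjusted p under 0.05, beside 2.47% and 3.53% of all genes. The reductases that recharge Txn1 and Txn2 moved little. Txnrd1, the cytosolic reductase, had a log2 fold change of -0.20 (SE 0.13, edgeR adjusted p = 0.836) for HF against Sham, and Txnrd2, the mitochondrial one, -0.01 (SE 0.09, edgeR adjusted p = 0.995). Prdx3, the mitochondrial peroxiredoxin that Txn2 reduces, had -0.06 (SE 0.10, edgeR adjusted p = 0.943), beside -0.54 for Txn2 itself. Nxn, a thioredoxin-like oxidoreductase, was 5.4, 7.3 and 8.1 CPM in Sham rats and 13.1, 10.2 and 8.6 CPM in HF rats, all higher (log2 fold change 0.62, SE 0.22, edgeR adjusted p = 0.805), and Txnrd3 was lower in all HF rats (-0.30, SE 0.11, edgeR adjusted p = 0.805). The glutaredoxin Glrx2 gave 0.25 (SE 0.10, edgeR adjusted p = 0.648) for HFE against HF. For BAIBA against HF, Glrx5 gave 0.21 (SE 0.10, edgeR adjusted p = 0.851) and Glrx 0.39 (SE 0.22, edgeR adjusted p = 0.851). Nxn was lower in all HFE than in all HF rats (-0.33, SE 0.18, edgeR adjusted p = 0.687).

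In the Mondo network, the partners and glucose-handling targets of MondoA, 12 of 13 genes in the table were tested and edgeR called 0 in the same 3 comparisons, with median log2 fold changes of 0.0026, -0.12 and 0.07. For HF against Sham 1 gene was higher and 3 were lower at an unadjusted p under 0.05, beside 2.47% and 3.53% of all genes. Mlx, the partner of MondoA, had log2 fold changes of 0.04 (SE 0.10) for HF against Sham, -0.10 (SE 0.10) for HFE against HF and -0.02 (SE 0.10) for BAIBA against HF. Hk2, the hexokinase that makes glucose 6-phosphate, was 171, 143 and 142 CPM in Sham rats, 120, 81.0 and 86.6 CPM in HF rats, 113, 114 and 132 CPM in HFE rats, and 131, 135 and 151 CPM in BAIBA rats. All HF rats were below all Sham rats (log2 fold change -0.67, SE 0.16, edgeR adjusted p = 0.772), and each BAIBA rat had more than the highest HF rat (0.53, SE 0.16, edgeR adjusted p = 0.851). Slc2a1, the basal glucose transporter that Txnip takes into endosomes, was 26.0, 22.7 and 19.8 CPM in Sham rats and 14.8, 13.5 and 15.9 CPM in HF rats (-0.63, SE 0.14, edgeR adjusted p = 0.737), and its HFE (13.7, 17.3 and 17.0 CPM) and BAIBA values (15.5, 16.5 and 14.4 CPM) overlapped with HF. Klf10, named here for its likeness to Txnip, was 10.4, 12.5 and 15.6 CPM in Sham rats and 13.8, 27.7 and 30.8 CPM in HF rats (0.91, SE 0.31, edgeR adjusted p = 0.805). Gpd1, of the glycerol phosphate shuttle, was lower in all HFE than in all HF rats (-0.46, SE 0.10, edgeR adjusted p = 0.627). Pfkfb3, which raises fructose 2,6-bisphosphate, was lower than in HF in all HFE (-0.43, SE 0.13, edgeR adjusted p = 0.627) and all BAIBA rats (-0.34, SE 0.13, edgeR adjusted p = 0.851).

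**Figure D4:**
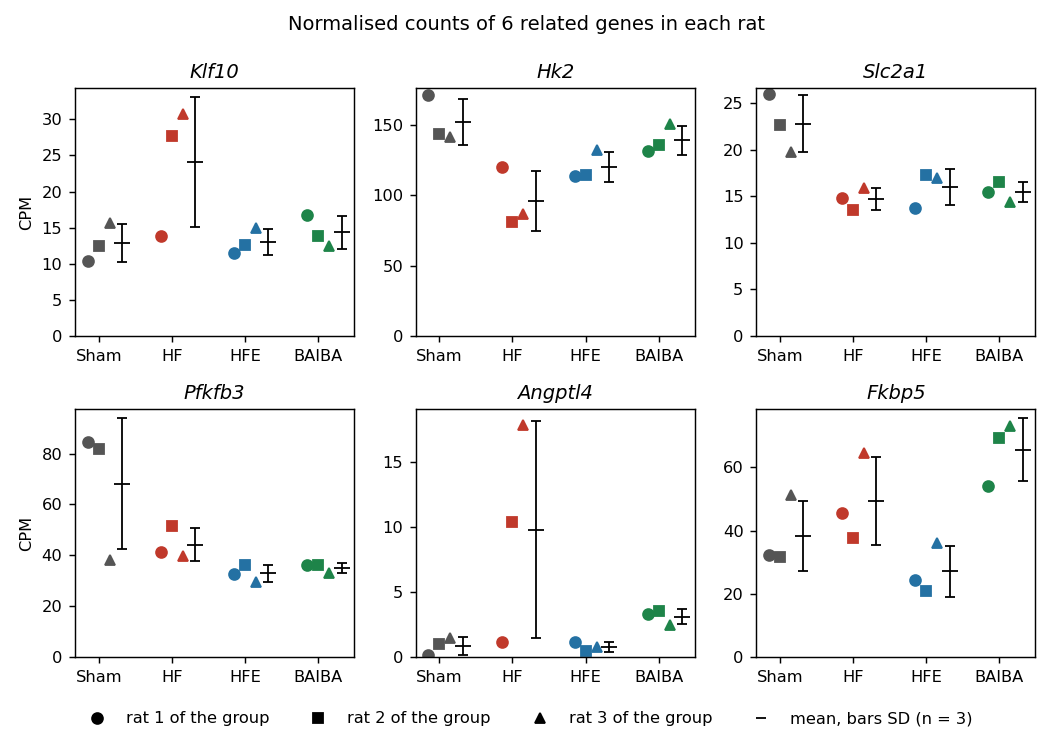
Level (CPM, linear axis from 0) of Klf10, Hk2, Slc2a1, Pfkfb3, Angptl4 and Fkbp5 in each rat of the 4 groups, with the group mean and SD. Klf10 and Angptl4 stood highest in HF rats 2 and 3, and Hk2 was lowest in the same rats, at 81.0 and 86.6 CPM.

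Of the arrestin-fold genes and Nedd4-type ligases, 13 or 14 were tested per comparison and edgeR called 0 in the same 3, with median log2 fold changes of 0.0018, -0.08 and -0.08. No gene of this list had an unadjusted p under 0.05 for HF against Sham, beside 6% of all genes. Nedd4 and Itch, ligases that bind the PY motifs of Txnip and the Arrdc proteins, had log2 fold changes of -0.10 (SE 0.10) and 0.15 (SE 0.16) for HF against Sham. For HFE against HF they gave -0.12 (SE 0.09) and -0.35 (SE 0.14, edgeR adjusted p = 0.648), and for BAIBA against HF 0.04 (SE 0.13) and -0.36 (SE 0.19). Arrb1, β-arrestin 1, was 7.7, 10.4 and 13.6 CPM in HF rats and 6.4, 7.1 and 7.7 CPM in BAIBA rats (-0.59, SE 0.23, edgeR adjusted p = 0.851), and the ligase Wwp1 was higher in all BAIBA than in all HF rats (0.31, SE 0.12, edgeR adjusted p = 0.851). The retromer subunit Vps26b, which shares the arrestin fold, was -0.13 (SE 0.08, edgeR adjusted p = 0.826) for HF against Sham and 0.11 (SE 0.08, edgeR adjusted p = 0.738) for HFE against HF.

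Among 16 genes that glucocorticoids or fasting switch on, edgeR called 0 in the same 3 comparisons, and the median log2 fold changes were 0.19, -0.36 and 0.26. Angptl4, a lipoprotein lipase inhibitor of fasting, was 0.12, 0.97 and 1.44 CPM in Sham rats, 1.15, 10.4 and 17.8 CPM in HF rats, 1.13, 0.42 and 0.76 CPM in HFE rats, and 3.29, 3.53 and 2.47 CPM in BAIBA rats. HFE against HF gave -3.65 (SE 1.01, edgeR adjusted p = 0.627), a difference that DESeq2 called and that rested on HF rats 2 and 3, since HF rat 1 was close to the HFE rats. Pdk4, a brake on glucose oxidation named here after its values were seen, was 69.1, 343 and 709 CPM in HF rats 1 to 3 and 57.0 to 133 CPM in Sham rats (HF against Sham 2.04, SE 0.85, edgeR adjusted p = 0.805). Its level was 47.5, 38.1 and 98.4 CPM in HFE rats and 108, 228 and 209 CPM in BAIBA rats, so high values were not confined to HF. Fkbp5, a glucocorticoid-induced chaperone, was 24.2, 20.8 and 36.1 CPM in HFE rats and 45.4, 37.8 and 64.7 CPM in HF rats (HFE against HF -0.87, SE 0.26, edgeR adjusted p = 0.627). Klf15 had -0.25 (SE 0.16) for HF against Sham.

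For BAIBA against HFE, the comparison in which Arrdc2 had its largest difference, 13 of the 16 hormone and fasting genes were higher with BAIBA, with a median log2 fold change of 0.51 beside 0.00049 over all tested genes. Of all tested genes, 50.1% were higher. EdgeR called 0 of the 16, and 7 were higher at an unadjusted p under 0.05, beside 4.68% of all genes. Since the list was written with earlier results of these data known, nothing is read from these counts or the median. Fkbp5 was 54.3, 69.2 and 73.2 CPM in BAIBA rats, above all HFE rats (1.28, SE 0.21, edgeR adjusted p = 0.131). With the rat number as a replicate block, edgeR called 2 genes, Fkbp5 and Ddit4 (0.216% of all genes), and DESeq2 called Angptl4, Ddit4, Fkbp5 and Tsc22d3 (0.728%). The block left the count of the 8 genes called at 0. Without HFE rat 3, edgeR called 2, Fkbp5 and Tsc22d3 (0.0853%). For BAIBA against Sham and HFE against Sham, edgeR called 0 of the 64 and 63 tested genes of the 4 lists, with 18 and 12 under an unadjusted p of 0.05, beside 7.41% and 11.2% of all genes. DESeq2 called Errfi1 in the first (0.333%) and Pfkfb3 in the second (0.313%). Over all 4 groups edgeR gave 0 genes of the lists at an adjusted p under 0.05, and 19 at an unadjusted p under 0.05 (9.71% of all genes). DESeq2 gave 5 over the 4 groups (Angptl4, Fkbp5, Hk2, Pfkfb3 and Slc2a1), beside 1.34% of its genes.

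Clock genes, which share regulators and hormones with this set, differed between rats, and the time of day of collection is not given in the sources used here. Per1 was 69.0, 85.8 and 80.2 CPM in Sham rats, 106, 42.8 and 66.6 CPM in HF rats, 17.2, 77.1 and 249 CPM in HFE rats, and 82.3, 106 and 109 CPM in BAIBA rats. Arntl, the gene of BMAL1, was 2.76 to 4.67 CPM in Sham, 5.50, 10.9 and 8.37 CPM in HF, 17.7, 10.9 and 3.86 CPM in HFE and 1.84 to 3.14 CPM in BAIBA. HF rat 3 stood apart in the clock output genes, with Nr1d1 at 71.3, 120 and 13.0 CPM, Dbp at 114, 83.2 and 20.5 CPM and Ciart at 17.6, 19.4 and 2.12 CPM in HF rats 1 to 3. Within HFE the rat with the lowest Per1 was also the rat with the lowest Txnip and Arrdc2, and within HF the rat with the highest Per1 had the lowest Txnip and the highest Arrdc2. The part of the clock genes in the levels of Txnip and Arrdc2 was not tested.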

How the data were processed

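Left ventricular mRNA of 12 rats (3 per group) was sequenced as paired reads after oligo(dT) selection. The authors aligned reads with HISAT2, assembled with StringTie and counted with featureCounts of Subread, and deposited the raw count of each gene. The authors also deposited FPKM, which divide these counts by gene length and library total, and which were used for levels between genes and in limma alternatives only. The submitters' processing notes name the mouse build mm9, while the gene identifiers are rat Ensembl identifiers, so the coordinates printed are those of the RefSeq promoter windows alone. The methods state an orientation mode for the alignment, while tool versions and the use of strand in the counting are not given in the sources used here. RefSeq GRCr8 served for names, overlapping genes and promoter windows.

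Counts were tested in R 4.3.3 with edgeR 4.0.16 (filterByExpr, TMM, robust quasi-likelihood fits of the 2 groups compared, Benjamini-Hochberg over all genes). Adjusted p-values are from edgeR unless another tool is named. DESeq2 1.42.0 and limma 3.58.1 were alternatives, with other scalings, filters, a fit of all 12 rats, pseudocounts (1 or 0.1), a replicate block and each rat left out in turn. CPM used TMM factors of the 12 rats. Correlations used scipy 1.17.1 and numpy 2.4.6. Total counts were 14812541 to 19732588 per rat. Replicates differed by more than sampling noise (chi-square per degree of freedom 12.6 to 36.4), so each rat was counted as 1 sample.

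The 8 genes and the lists were chosen with earlier results of these data known. The genes named from the lists are any called one, a fixed set (Txnrd1, Txnrd2, Prdx3, Mlx, Itch, Nedd4, Fkbp5, Klf15 and Per1), and, per list and comparison with HF, up to 2 genes with the largest differences among those whose groups did not overlap. For likeness, the 5 highest and 5 lowest r were named for Txnip, and the 3 highest for Arrdc4, Arrdc2 and Txn1. Same-numbered rats are different animals. For BAIBA against HFE alone, deviations of same-numbered rats correlated above 0.1 in every pair (0.195, 0.265 and 0.139), so the pairing comes from the data and its blocked count stands beside that result.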

Additional observations from a re-analysis of the deposited data

How the results depend on the processing

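The 720 alternative log2 fold changes of the 8 genes lay within 1 SD between rats (pooled over the groups compared, on log2(CPM + 0.1)) of the reported values, but 40 had the other sign. These fell on 16 of the 48 values, the largest of them 0.16 in size. The number of the 8 genes called was 0 in all 6 comparisons and over the 4 groups. It became 1 with DESeq2 for HF against Sham (Txnip) and ranged from 0 to 1 when 1 rat was left out, with Txnip called without HF rat 1. Over the 4 groups DESeq2 gave 2. At an unadjusted p under 0.05 the counts were 2 for HF against Sham, 2 for HFE against HF, 3 for BAIBA against HF, 1 for BAIBA against HFE, 1 for BAIBA against Sham, 2 for HFE against Sham and 3 over the 4 groups, a rule that is looser by construction. Of the genes of the 4 lists, the unadjusted rule gave 8, 10, 5, 11, 18 and 12 in the same order of comparisons. The shares of all genes under this rule were 6%, 7.62%, 5.55%, 9.57%, 7.41% and 11.2%, and 9.71% over the 4 groups. DESeq2 gave 1 for HFE against HF, 4 for BAIBA against HFE, 1 for BAIBA against Sham, 1 for HFE against Sham and 5 over the 4 groups. The shares of its genes were 0.0813%, 0.728%, 0.333%, 0.313% and 1.34%. With no filter on low counts BAIBA against Sham gave 1 (Errfi1), beside 0.128% of all genes. Leaving out 1 rat gave 0 to 2 for BAIBA against HFE (2 without HFE rat 3, beside 0.0853% of all genes). It gave 0 to 1 for BAIBA against Sham (Pfkfb3 without Sham rat 3, beside 0.0392%). The replicate block gave 2 for BAIBA against HFE (0.216% of all genes) and changed no other call in the 6 comparisons. Over the 4 groups it kept the 8 genes at 0 and called Fkbp5 (0.032%). The within-group correlation of Mlxip with Txnip turned to -0.18 with library size scaling, -0.19 on log2(FPKM + 1) and -0.0501 with the replicate block. With the block, r was -0.84 for Arrdc2, 0.78 for Arrdc4, 0.78 for Arrdc1 and 0.59 for Arrdc3, so Arrdc3 no longer had the highest r. Txn1 (-0.21) and Txn2 (-0.31) changed little with it. Without 1 rat the correlation of Mlxip ranged from -0.0083 (HFE rat 1) to 0.41 (HF rat 1). The same range was -0.59 to 0.69 for Arrdc2 (highest without HF rat 1), -0.45 to 0.0873 for Txn1 (highest without BAIBA rat 2), -0.56 to 0.016 for Txn2 (highest without HF rat 3) and, for Arrdc4, -0.13 (without HF rat 1) to 0.69. The cause of these changes was not tested. Depth limits Arrdc2 most, at 73 to 231 counts per rat.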
